A study of Apis mellifera with 20 samples.

Results

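GB50877, GB50876, GB50875 and GB50874 are 4 neighbouring gene models of the honeybee (Apis mellifera) on scaffold Group10.26, out of 15314 models measured. They were taken by ID from a run of adjacent models chosen by their input FPKM, which was high in first-instar larvae and lower afterwards in earlier results of these data. Levels at later instars against the first are therefore given as a description, with no test. The series measured RNA in 20 libraries of whole larvae at 3 larval stages. First-instar larvae (L1), which can still become either caste, have 2 immunoprecipitated (IP) and 2 input libraries, and so do queen and worker larvae of instar 3 (L3) and of instar 5 (L5). IP libraries hold polyadenylated RNA fragments pulled down with an antibody against N6-methyladenosine (m6A), and input libraries hold fragments sequenced without a pulldown step. All larvae came from managed colonies, the labels name no treatment, and they do not say how many larvae made up a sample or whether replicates came from separate colonies, so a p-value measures only the spread between these libraries, which may be technical. Pairs of values below are replicates 1 and 2 in that order.

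m6A is a methyl mark that a METTL3 and METTL14 writer complex places on adenosines in messenger RNA and that reader proteins with a YTH domain bind. It is known for affecting how long a transcript lasts and how well it is translated. Queens and workers are female castes that grow from alike eggs, and the diet of the larva sets which caste develops. The IDs of the 4 models carry no gene names: 0 of the 15314 IDs were found in a RefSeq table of 12398 genes, so no function is given for any of them.

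The models form a compact run near the end of the deposited scaffold, all 4 on the minus strand and with no other model between or across them. GB50877 spans 24738 bp (Group10.26, 2636902 to 2661639) and is followed, after 10062 bp, by GB50876, which spans 1191 bp (2671702 to 2672892). GB50875 spans 1435 bp (2674221 to 2675655) and starts 1328 bp further on. GB50874 spans 7800 bp (2677427 to 2685226) after another 1771 bp. The scaffold holds 279 models, of which these are numbers 275 to 278. The deposited tables give 1 interval per model, so exons, introns and untranslated regions are not known, and no genome build is given in the sources used here.

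**Figure D1:**
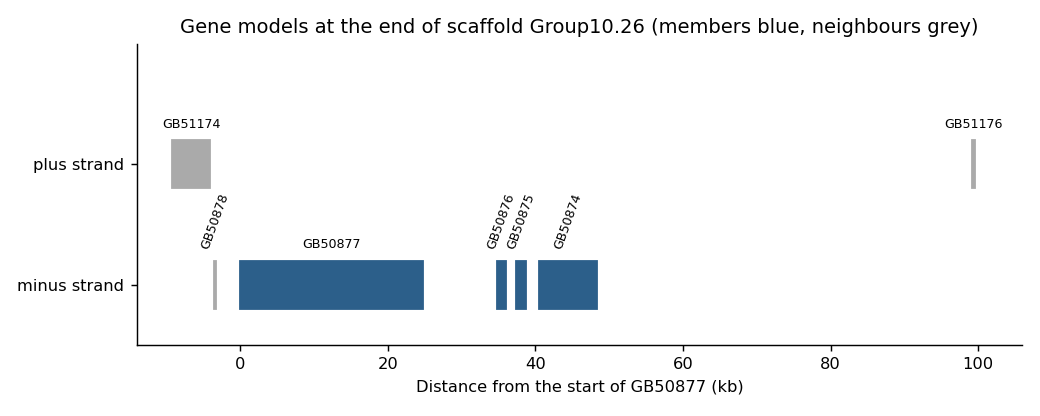
Spans of the 4 models (blue) and of their nearest neighbours (grey), by strand, along the distance in kb from the start of GB50877. All 4 members are on the minus strand within 48.3 kb, and the nearest model after them, GB51176, lies beyond a wide gap.

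The values are FPKM, fragment numbers scaled for model length and for the total mapped in a library, so levels can be compared between models of different length. Read depth is unknown, and an exact 0 can be a failed estimate, so such a value is called listed at 0. The input libraries list 8983 to 10564 models above 1 FPKM, and 4292 to 5430 models were listed at 0 in L5 input, against 2993 to 3822 in L1 and L3 input. In IP the zeros went the other way, with 1384 to 1734 in L5 against 2433 to 3667 in L1 and L3, and the part of this in the IP over input values of low models at L5 was not tested. In bulk samples, fewer cells of a type and less RNA per cell cannot be told apart. The L5 queen libraries numbered 1, IP and input alike, stood apart from those numbered 2 for 3 of the 4 models, and results that rest on them are given with and without them.

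GB50875 carried most of the signal of the run. Its level at L1 was 559 and 867 FPKM in IP and 585 and 969 FPKM in input, and on average only 142 of the 15314 models were higher in L1 input. In L3 queens it had 8.35 and 10.01 FPKM in IP and 8.03 and 8.35 FPKM in input, and in L3 workers 11.2 and 13.4 FPKM in IP and 8.87 and 9.42 FPKM in input. Every L3 library was thus far below every L1 library, and the scaled input mean at L3 was 1.26% of that at L1 in queens and 2.28% in workers. At L5, queens had 97.97 and 8.92 FPKM in IP and 65.5 and 6.53 FPKM in input, and workers had 2.54 and 1.24 FPKM in IP and 1.71 and 0.848 FPKM in input. The L5 worker values were the lowest of all 5 kinds, and the L5 queen libraries numbered 1 were the highest after L1, while those numbered 2 were close to the L3 level.

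GB50876, the shortest model and the neighbour of GB50875, was close to an on and off pattern. At L1 it had 5.71 and 3.99 FPKM in IP and 29.4 and 25.2 FPKM in input. At L3 it was listed at 0 in both queen IP libraries, with 0.318 and 0.315 FPKM in queen input, and workers had a value listed at 0 and 0.115 FPKM in IP, and one listed at 0 and 0.164 FPKM in input. At L5 the queen libraries numbered 1 again stood apart, with 13.3 FPKM in IP and 10.8 in input, where those numbered 2 had 0.617 FPKM in IP and a value listed at 0 in input. L5 workers had 0.578 and 0.333 FPKM in IP and were listed at 0 in both input libraries. Outside L1, a level above 1 FPKM was thus seen in the L5 queen libraries numbered 1 alone.

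GB50877 and GB50874, the longer models at the ends of the run, fell less and never to 0. GB50877 had 6.61 and 8.997 FPKM in IP and 10.8 and 13.2 FPKM in input at L1. It had 2.36 and 2.30 FPKM in IP and 3.27 and 2.22 FPKM in input in L3 queens, and 1.65 and 1.77 FPKM in IP and 2.45 and 2.16 FPKM in input in L3 workers. At L5 it was above the L3 level in every library of its type, with 19.0 and 8.46 FPKM in IP and 12.7 and 5.71 FPKM in input in queens, and 6.44 and 6.38 FPKM in IP and 4.71 and 3.54 FPKM in input in workers. The scaled L5 queen mean in input was 130% of the L1 mean and the ranges overlapped, whereas that of L5 workers was 61.5% with no overlap. The 130% rests on L5 queen library 1, at 13.2 scaled FPKM. Library 2, at 6.39, was below the L1 mean of 7.52.

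GB50874 was lower after L1 in every kind. It had 15.6 and 15.2 FPKM in IP and 11.02 and 10.2 FPKM in input at L1. In L3 queens it had 3.07 and 5.36 FPKM in IP and 1.65 and 3.18 FPKM in input, and in L3 workers 4.06 and 4.38 FPKM in IP and 2.58 and 2.96 FPKM in input. At L5 the queens had 1.54 and 1.90 FPKM in IP and 0.821 and 0.663 FPKM in input, against 2.41 and 2.94 FPKM in IP and 2.16 and 1.63 FPKM in input in workers. L5 queens were thus the lowest kind for GB50874, whereas L5 workers were the lowest for GB50875, and the L5 queen libraries numbered 1 and 2 lay close together.

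**Figure D2:**
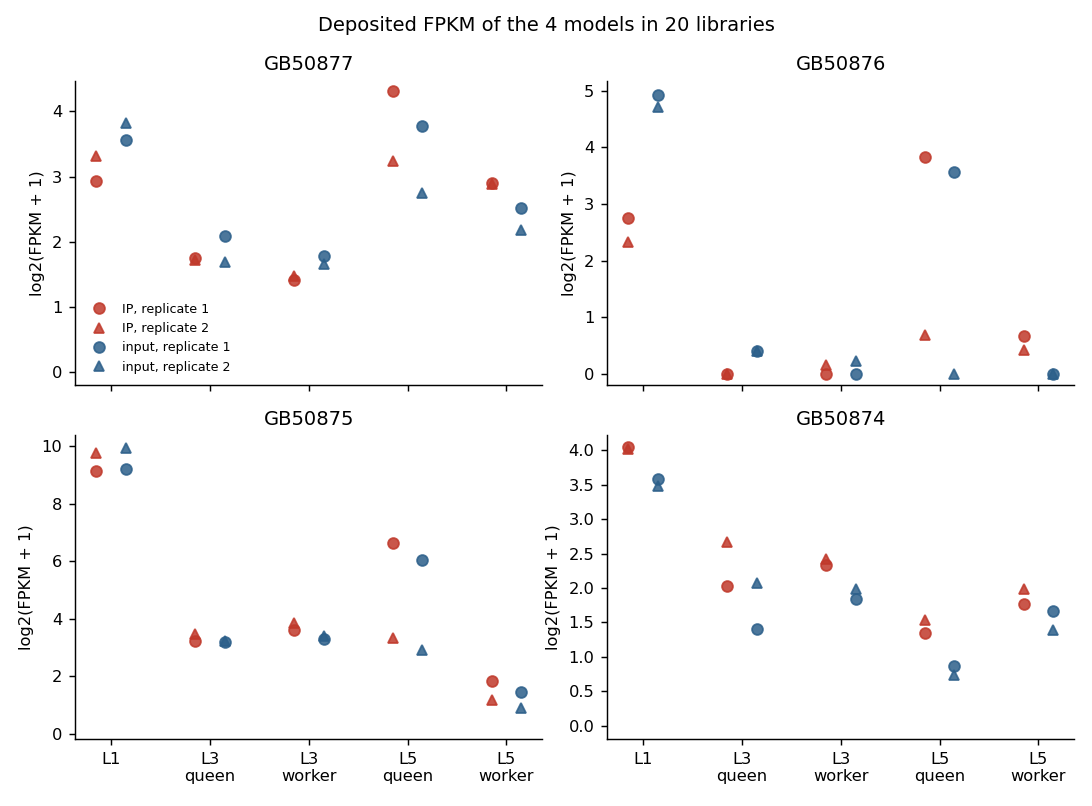
Deposited levels of the 4 models as log2(FPKM + 1) in each kind of larva, with IP left (red) and input right (blue), circles for replicate 1 and triangles for replicate 2; the scale of the vertical axis differs between panels. L1 is highest for GB50876, GB50875 and GB50874 in input, and the L5 queen libraries numbered 1 lie above those numbered 2 in IP and input for GB50877, GB50876 and GB50875, whereas for GB50874 the 2 are close.

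The make-up of the run changed with these levels. GB50875 held 95.2% and 96.9% of the summed FPKM of the 4 models in L1 IP and 92.0% and 95.2% in L1 input. It held 56.7% to 68.2% over the L3 libraries of both types. In L5 workers GB50877 was the highest model in all 4 libraries, and GB50875 held 11.4% to 21.2%. By mean deposited input FPKM, GB50877 had the order L1, L5 queens, L5 workers, L3 queens and L3 workers, and the ranges of L1 and L5 queens and those of the L3 castes overlapped. That order depends on the scale: by mean scaled FPKM, L5 queens (9.78) were above L1 (7.52) and L3 workers (2.84) above L3 queens (2.06). The place of L5 queens above L1 rests on library 1 (13.2), since library 2 (6.39) was below the L1 mean. For GB50875, L1 was followed on both scales by L5 queens, L3 workers, L3 queens and L5 workers, but the L5 queen libraries, at 65.5 and 6.53 FPKM, lay on both sides of the L3 values. For GB50874 the order by deposited FPKM was L1, L3 workers, L3 queens, L5 workers and L5 queens, and the ranges of L3 queens overlapped those of L3 workers and of L5 workers. By scaled FPKM, L5 workers (2.12) were above L3 queens (1.85).

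None of the flanking models was highest at L1. GB51174, just before the run on the plus strand (2627705 to 2632869), had 21.2 and 40.2 FPKM in IP and 21.6 and 31.9 FPKM in input at L1, and 25.1 to 31.6 FPKM in the 4 L3 input libraries. At L5 it had 34.3 and 17.7 FPKM in IP and 32.1 and 16.7 FPKM in input in queens. Workers of L5 had 54.9 and 37.1 FPKM in IP and 63.3 and 41.4 FPKM in input. Between its L5 queen libraries, number 1 was higher by 1.02 in IP and 0.80 in input, in log2(scaled FPKM + 1). That is close to the gap of GB50877 (1.17 in IP and 0.94 in input). GB50878 (2633380 to 2633633, minus strand) lay between GB51174 and GB50877 and was below 2 FPKM in every L1 and L3 library. In L5 workers, however, GB50878 had 3.95 and 3.79 FPKM in IP and 9.41 and 4.87 FPKM in input. GB51176 (2736091 to 2736453, plus strand), the last model of the scaffold, was listed at 0 in all 20 libraries. These are the models just outside the run on either side.

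Expression of the castes was compared in the 10 input libraries with limma on log2(scaled FPKM + 1), where libraries are scaled by median-of-ratios factors and p-values are adjusted by Benjamini and Hochberg over 10119 models with a mean of at least 1. All 4 models passed that filter, GB50876 only through L1 and the L5 queen library numbered 1. At L3, 0 of the 4 models differed between queens and workers at a limma adjusted p under 0.05, where 7.61% of all models did. The closest was GB50874, which was lower in queens (log2 difference -0.69 ± 0.28, SE, n = 2 each, limma adjusted p = 0.204). That difference was -1.03 to -0.34 with 1 library left out and -0.18 with FPKM as deposited, and it passed with a weight per library (limma adjusted p = 0.0328). Being lower than L1 in both castes limits how far the castes could differ at L3. At an unadjusted limma p under 0.05, 1 of the 4, GB50874, passed.

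At L5, GB50875 was higher in queens than in workers and was the 1 model of the 4 that passed, where 11.4% of all models passed. The log2 difference was 3.35 ± 0.81 (SE, n = 2 each, limma adjusted p = 0.0349), and 99.9% of the models tested had a lower one. Both queen libraries, at 65.5 and 6.53 FPKM, lay above both worker libraries, at 1.71 and 0.848 FPKM. The difference was 1.82 without queen library 1 and 4.90 without queen library 2. In these fits the wide gap between the queen libraries no longer counts in the spread, so they cannot show that the call holds. The call was lost without any other single library and with the L5 libraries alone (limma adjusted p = 0.225). It was also lost with no filter and with a weight per library (limma adjusted p = 0.111 each). GB50877 and GB50876 had log2 differences of 0.87 ± 0.33 and 1.84 ± 0.94 and missed the threshold (limma adjusted p = 0.138 and 0.258). Both values turn on the queen libraries. GB50876 differed by 0 without queen library 1 and by 3.70 without queen library 2. The latter sets queen library 1, through which the model passed the filter, against worker libraries listed at 0. GB50877 differed by 0.39 without queen library 1 and by 1.36 without queen library 2. GB50874 had the opposite sign, with -0.81 ± 0.28 (limma adjusted p = 0.107) and no overlap between queens and workers.

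Whether the caste difference itself changed between the instars was tested by the interaction, L5 minus L3, which was added after values were seen. The run was noted as lower after L1 in input, so the interaction is not free of the choice of members. No support is drawn from the interaction. It passed for 0 of the 4 models, where 7.98% of all models passed, and for 2 of them, GB50877 and GB50875, at an unadjusted limma p under 0.05. For GB50875 it was 4.14 ± 1.15 log2 units (limma adjusted p = 0.0663). It was 2.60 without L5 queen library 1 and 5.69 without L5 queen library 2, fits in which the gap between these libraries no longer counts in the spread. With a weight per library it passed for this model (limma adjusted p = 0.0459). With no filter it did not (limma adjusted p = 0.167).

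The L3 input libraries are among those in which the run was noted as low, so L5 against L3 is not free of the choice of members, and a choice for low L3 values favours a higher level at L5. The values of GB50877 in queens are therefore given as a description. GB50877 had 12.7 and 5.71 FPKM in L5 queen input against 3.27 and 2.22 FPKM in L3 queen input, with no overlap, and its log2 difference was 1.73 ± 0.33 (SE, n = 2 each). It was 1.25 without L5 queen library 1 and 2.22 without L5 queen library 2. At an adjusted p under 0.05, 1 model of the 4, GB50877, was past the threshold in queens, where 44.2% of all models were. That is the direction which the choice of members favours, so no support is drawn from it. In workers the same model had a log2 difference of 0.50 ± 0.33, and the interaction given above did not pass for it (1.22 ± 0.47, limma adjusted p = 0.163).

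GB50875 was lower at L5 than at L3 in workers. A choice for low L3 values does not favour this direction, but a choice for low L5 values does. The run was noted as lower after L1, so this test is not free of the choice either, and no support is drawn from it. GB50875 had 1.71 and 0.848 FPKM in L5 worker input against 8.87 and 9.42 FPKM in L3 worker input, with no overlap. Its log2 difference was -2.44 ± 0.81 (SE, n = 2 each, limma adjusted p = 0.0457), and 2.92% of the models tested had a lower one. It was the 1 model of 4 that passed in workers, where 37% of all models passed. The spread behind this test includes the L5 queen libraries, which lie far apart for this model. Without library 1 of them the difference was -2.44 with a limma adjusted p of 0.000985, and without library 2 it passed as well, but without any other single library it did not (limma adjusted p of 0.0659 to 0.156). Nor did it with FPKM as deposited (limma adjusted p = 0.0595), with no filter (limma adjusted p = 0.134) or with L1 left out (limma adjusted p = 0.0661). In queens GB50875 had a log2 difference of 1.69 ± 0.81, which was 0.16 without L5 queen library 1 and 3.25 without L5 queen library 2.

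The gap between the L5 queen replicates was wide against that of other models for GB50875 and GB50876. In scaled FPKM, library 1 over library 2 was 11.8 in IP and 9.28 in input for GB50875, 23.1 in IP for GB50876, which was listed at 0 in input library 2, and 2.40 in IP and 2.06 in input for GB50877. For GB50874 the ratios were 0.871 in IP and 1.15 in input. Of 10391 models, 6, with GB50875 counted, had a gap at least as wide as its gap in both IP and input, and 5 had one at least as wide as that of GB50876, itself included. For GB50877 the number was 189. The gap ran the same way in IP and in input, and its cause was not tested.

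**Figure D3:**
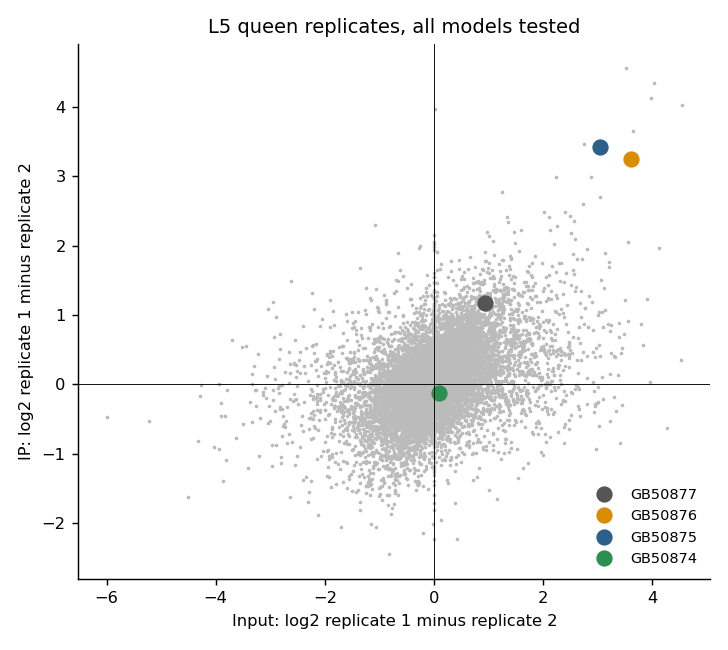
For 10391 models (grey), the log2(scaled FPKM + 1) of L5 queen replicate 1 minus replicate 2 in input (horizontal) and in IP (vertical), with the 4 models in colour. GB50875 and GB50876 lie at the upper right edge of all models, GB50877 at 0.94 in input and 1.17 in IP, and GB50874 near 0.

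Pulldown over input was compared in all 20 libraries with the same limma model (10391 models tested). The ratio is that of a whole model, single m6A sites cannot be seen, and no pulldown without the m6A antibody shows how much of the ratio is due to m6A. The L1 and L3 input libraries entered the choice of members, and a choice for high L1 input favours a low ratio at L1, and one for low L3 input a high ratio at L3. For GB50874, the scaled IP over input ratio of libraries with the same number was 2.09 and 2.48 at L1, 2.46 and 2.41 in L3 queens, 1.94 and 1.86 in L3 workers, 1.97 and 2.60 in queens of L5, and 0.950 and 1.54 in workers of L5. The ratio was thus close to 2 or above in 4 kinds of larvae that differed in the level of the model, and lower in L5 workers. In L5 queens it rests on input of only 0.821 and 0.663 FPKM.

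GB50874 was higher in IP by 1.08 ± 0.27 log2 units at L1 (SE, n = 2 each, limma adjusted p = 0.00564), where it was the 1 model of 4 that passed and 44.3% of all models passed. It was also the 1 of 4 in L3 queens, at 0.93 ± 0.27 (limma adjusted p = 0.0139, 43% of all models), and in L3 workers, at 0.76 ± 0.27 (limma adjusted p = 0.0353, 45% of all models). These L3 calls go in the direction that a choice for low L3 input favours, so no support is drawn from them. At L5 it had 0.64 ± 0.27 in queens (limma adjusted p = 0.215) and 0.20 ± 0.27 in workers (limma adjusted p = 0.660), and 0 of the 4 models passed in either caste, where 3.62% and 16.8% of all models passed. At an unadjusted limma p under 0.05, 1 of the 4, GB50874, passed in L5 queens and 0 in L5 workers. With FPKM as deposited the 3 calls of GB50874 were lost (0.50 at L1, 0.61 in L3 queens and 0.47 in L3 workers), and without scaling the median of all models was -0.54, -0.36 and -0.26 in these kinds. The L1 call was also lost without L1 IP library 2 (limma adjusted p = 0.0535), the L3 queen call without L3 queen IP library 2 or L3 queen input library 1 (limma adjusted p = 0.207 and 0.178), and the L3 worker call without any 1 of the 4 L3 worker libraries (limma adjusted p of 0.0929 to 0.152), with no filter (limma adjusted p = 0.0511) and when 0.1 was added in place of 1 (limma adjusted p = 0.0589).

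GB50876 had a low ratio at L1, which is given as a description, since its high L1 input entered the choice of members. The scaled ratio was 0.288 and 0.263, and the log2 difference was -1.67 ± 0.95 (SE, n = 2 each), which 1.12% of the models tested undercut. Over all alternatives the difference was -2.29 to -1.58. It did not pass in the main fit (limma adjusted p = 0.172) and did with FPKM as deposited (-2.29, limma adjusted p = 0.0397). A choice for high L1 input favours this direction, so no support is drawn from it. In the L5 queen libraries numbered 1, the others with a level above 1 FPKM in both types, the ratio was 1.30, and the difference from L1 was not tested.

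GB50875 and GB50877 did not pass in the pulldown comparison. The scaled ratio of GB50875 was 1.41 and 1.49 at L1, 1.38 and 1.72 in L3 queens, 1.56 and 1.79 in L3 workers, 1.57 and 1.24 in queens of L5, and 1.27 and 1.25 in workers of L5. It was above 1 in all 10 pairs of libraries with the same number, and the model passed in 0 of the 5 kinds (limma adjusted p of 0.576 to 0.908). With FPKM as deposited its log2 difference at L1 turned to -0.11. The ratio of GB50877 was 0.907 and 1.13 at L1, 0.956 and 1.48 in L3 queens, 0.832 and 1.03 in L3 workers, 1.57 and 1.35 in queens of L5, and 1.17 and 1.53 in workers of L5. It too passed in 0 of the 5 kinds (limma adjusted p of 0.493 to 0.969).

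**Figure D4:**
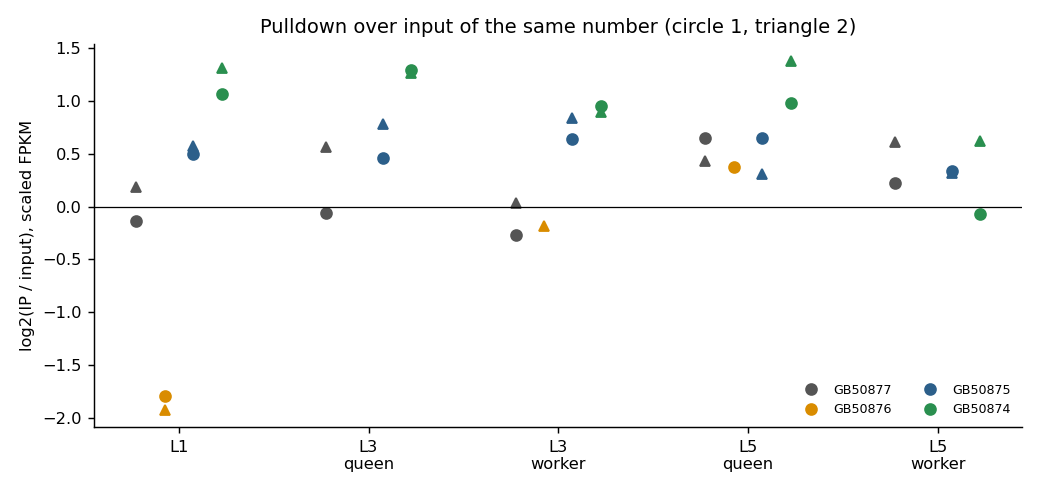
Log2 of scaled IP over scaled input for libraries of the same number, by kind of larva, with a colour per model, circles for replicate 1 and triangles for replicate 2; pairs with a value listed at 0 have no point. At L1 GB50876 lies at -1.80 and -1.93 and GB50874 at 1.06 and 1.31, with GB50877 and GB50875 between them.

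The other 275 models of the scaffold give the setting of these values. Between L3 castes 7.88% of the 203 tested passed (5 higher and 11 lower in queens), and between L5 castes 11.3% did (9 higher and 14 lower), close to the shares of all models. For IP against input at L1, 48 of 208 were higher and 52 lower, so 48.1% passed against 44.3% of all models. Over all 10391 models tested, 2486 were higher and 2115 lower.

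The 3 models outside the scaffold whose input profile was most like the mean log2 level of the run were GB42218 (Group1.34, 16084 to 23897, plus strand), GB44412 (Group5.14, 2637151 to 2645448, minus strand) and GB50565 (Group15.14, 587513 to 589282, plus strand), with Pearson's r of 0.989, 0.985 and 0.984 over the 10 input libraries, among 9912 models. These values rest largely on L1 against the rest. GB50565 had 320 and 264 FPKM in L1 input, at most 0.744 FPKM in L3 input, and 34.2 and 1.95 FPKM in L5 queen input against 1.03 and 0.0791 in L5 worker input. It thus also had a gap between the L5 queen libraries. Within the run, GB50875 and GB50876 followed the mean of the other 3 models at r = 0.942 and 0.941, GB50877 at 0.591 and GB50874 at 0.497.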

How the data were processed

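Per the file headers, the deposited tables hold 1 FPKM value per gene model for each of 20 libraries, with scaffold, strand, start and end. Per the submitters' processing notes, reads were mapped with HISAT2 2.1.0; which program gave FPKM, on which build and annotation, is not given in the sources used here. Low values shared no step between libraries (at most 2.36% of low models had the commonest ratio), so depth could not be recovered. The NEBNext kit named in the labels' protocols does not mark strand, and no model overlaps the 4 described.

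Libraries were scaled by median-of-ratios factors from models above 1 FPKM in every library (7511 for input, 6947 for all). Models averaging 1 scaled FPKM or more were fitted as log2(FPKM + 1) with limma 3.58.1 in R 4.3.3, with trend, 1 mean per kind and library type, and a threshold of 0.05 on the Benjamini-Hochberg adjusted p. On this scale the changes of low models are understated. The fit was tested on simulated data. The members, tests and lists were chosen with earlier results of these data known. Named are the members, the flanking models and the 3 most alike; 1 more model and the models of a shared replicate gap were named after their values were seen. Alternatives were no scaling, a pseudocount of 0.1, no filter, fewer kinds, a weight per library, a replicate block and leaving out each library. Figures were drawn with matplotlib 3.10.9.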

Additional observations from a re-analysis of the deposited data

How the results depend on the processing

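Of 860 recomputed log2 differences (40 values of the 4 models), 785 kept sign and side of the threshold, 35 lost a call, 21 gained one and 19 changed sign. No value that changed sign passed in either fit. The number of the 4 models that passed changed as follows. With a weight per library it was 1 between L3 castes, 0 between L5 castes, 1 for the caste interaction and 2 for IP against input at L1. With libraries of the same instars alone it was 0 between L5 castes, 0 for L5 against L3 workers and 2 for IP at L1. With no filter it was 0 between L5 castes, 0 for L5 against L3 workers and 0 for IP in L3 workers, which a pseudocount of 0.1 also made 0. With FPKM as deposited it was 2 for L5 against L3 queens, 0 for L5 against L3 workers, and 0 for IP in L3 queens and in L3 workers. For IP at L1 it stayed at 1 in that fit, but the model was GB50876 in place of GB50874. Without both L5 queen libraries numbered 1, an alternative chosen after seeing the data, it was 2 for IP at L1. When each library was left out in turn, it ranged from 0 to 3 between L5 castes and for the interaction, 1 to 3 for L5 against L3 queens, 0 to 1 for L5 against L3 workers, and 0 to 1 for IP at L1, in L3 queens and in L3 workers; a lone library is assumed to vary like the other groups. The cause of these changes was not tested.

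The replicate block gave 0 for L5 against L3 workers (GB50875, limma adjusted p = 0.0508), 3 for IP at L1, 2 for IP in L3 queens, 2 for IP in L3 workers and 1 for IP in L5 queens, with GB50875 among those that passed at L1 and L3 (limma adjusted p = 0.00833 at L1, 0.00754 in L3 queens and 0.00229 in L3 workers). IP and input replicates of the same number deviated together at r = 0.646, 0.634, 0.163, 0.426 and 0.0793 at L1, in queens and workers of L3, and in queens and workers of L5, all positive but under 0.1 in L5 workers. The numbers were to be used as pairs only if r was over 0.1 in every kind, so the block is given here and not in the main fit. Input libraries of the same number from different kinds had r from -0.0256 (L1 and L5 queens) to 0.365 (L1 and L3 queens). The r of L3 workers lies within that range. Those at L1, in L3 queens and in L5 queens lie above it and are a hint from the data that the numbers pair.

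Signs changed for GB50877 with FPKM as deposited, to 0.17 between L3 castes, -0.57 for IP at L1 and -0.16 for IP in L3 queens, and with L1 and L3 libraries alone to -0.028 for IP at L1. GB50875 went to -0.11 for IP at L1 with FPKM as deposited. With 1 library left out, GB50876 ranged from -0.34 to 3.37 for L5 against L3 queens, -0.19 to 3.51 for the interaction, -0.15 to 0.12 for IP in L3 workers and -1.29 to 2.33 for IP in L5 queens. GB50874 ranged from -0.46 to 0.22 for the interaction. GB50877 ranged from -0.31 to 0.35 for IP at L1 and -0.10 to 1.08 for IP in L5 queens, and GB50875 from -1.26 to 2.17 for IP in L5 queens and -0.051 to 0.45 for IP in L5 workers.

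Over all models, counts moved by more than 1.5 times: 770 between L3 castes (253 to 3012), 1150 between L5 castes (77 to 1746), 4469 and 3741 for L5 against L3 in queens and workers (2703 to 5034 and 1853 to 4654), 808 for the interaction (178 to 1762), and for IP 4601 at L1 (2989 to 6160), 4466 in L3 queens (2868 to 6006), 4673 in L3 workers (3244 to 7201), 376 in L5 queens (0 to 1513) and 1750 in L5 workers (27 to 3306). The count of 0 is limma on the L5 libraries alone, where 914 models had an unadjusted p under 0.05 and a weight per library gave 14. As deposited, 2675 models were higher and 269 lower in L3 queens, against 280 and 490 after scaling, and the splits were 1167 and 3687 (1977 and 2492 scaled) for L5 against L3 queens, 1735 and 1665 (1544 and 2197) for workers, 193 and 1145 (484 and 324) for the interaction, and for IP 1417 and 4207 (2486 and 2115) at L1, 1591 and 3357 (2394 and 2072) in queens of L3, 1708 and 2747 (2406 and 2267) in workers of L3 and 1483 and 263 (1069 and 681) in L5 workers. Depth is unknown, so no detection limit is given.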

Other observations

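The wide gap between the L5 queen libraries was also seen in another set of models that were high at L1. Apart from GB50875 and GB50876, 5 models had a log2 gap at least as wide as 3.05 in input and 3.25 in IP, and all 5 lie on scaffold Group15.14: GB50562, GB50564, GB50565, GB50566 and GB50567. Their mean input level was 66.9 to 928 FPKM at L1 and 0.103 to 5.28 FPKM in L3 queens. This set was chosen after its values were seen.

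A list of all models at least 3 log2 units lower in input in both L3 castes than at L1, the 4 members left out, held 45 models on 24 scaffolds. Their median log2 gap, L5 queen replicate 1 minus 2, was 0.92 in IP and 0.50 in input, against 0.07 in IP and 0 in input over the 10391 models tested. Libraries numbered 1 were higher by over 1 log2 unit in both IP and input for 17 of the 45 (37.8%), against 2.32% of all models, and those numbered 2 were for 0 of the 45, against 0.905% of all. The Group15.14 models named above were not left out, and at least GB50565 is among the 17, so this observation is not separate from the one above. The list was made after values were seen and has no test, and why the libraries differ was not tested.

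GB50880 (Group10.26, 2620599 to 2623776, minus strand), 4 models before the run, was also high at L1 and was picked out once its values were known. It had 16.8 and 9.73 FPKM in IP and 24.6 and 14.4 FPKM in input at L1, 4.69 and 8.49 FPKM in input in L3 queens and 1.86 and 2.26 FPKM in input in L3 workers. At L5 it had 1.11 and 0.525 FPKM in IP and 0.306 and 0.458 FPKM in input in queens, so the order of the queen libraries differed between IP and input, and 2.096 and 0.926 FPKM in IP and 0.693 FPKM and a value listed at 0 in input in workers.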
